A study of Mus musculus with 8 samples.

Results

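The genes described here belong to acetyl-CoA production and fatty acid synthesis, as enzymes or, for Srebf1, as a regulator. They are 10 genes, Acly, Acss1, Acss2, Acaca, Acacb, Fasn, Scd1, Scd2, Elovl6 and Srebf1, found by their symbols among the 53465 gene identifiers of the count table. All 10 were present, and all 10 passed the filter on low counts that left 14369 genes to test, although Acss1 did so with only 1 to 9 counts per sample. The study cultured bone-derived mesenchymal stem cells (MSCs) from C57BL6/N mice aged 3 to 5 months in α-MEM at 2% O2 (hypoxia, 4 samples) or 21% O2 (normoxia, 4 samples), and sequenced their total RNA. The mice were all wild-type males according to the methods of the study. All samples shared this medium, 5% CO2 and a sort by flow cytometry, on day 12 per the labels, which in the methods of the study kept CD45-/TER-119-/CD140a+/Sca-1+ cells. The study describes growth at 2% O2 up to the sort, after which the sorted cells were divided and kept for a week either at 2% O2 or at 21% O2, an order that the labels do not spell out. No allele, transgene or drug distinguished the groups, and bone chips were cultured along with the cells before the sort. Every change below is normoxia minus hypoxia on the log2 scale, so a negative value means a lower level at 21% O2.

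Fatty acid synthesis in the cytosol begins with acetyl-CoA, which ATP-citrate lyase (Acly) splits from citrate exported by the mitochondria and which acetyl-CoA synthetases make from acetate. Acetyl-CoA carboxylases add a carboxyl group to give malonyl-CoA, fatty acid synthase assembles palmitate from it, and elongases and stearoyl-CoA desaturases lengthen the chain and place a double bond. The transcription factor SREBP1, the product of Srebf1, switches on much of this route when it is released from the endoplasmic reticulum, and the same cytosolic acetyl-CoA is the acetyl donor for histones.

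At 21% O2, 4 of the 10 genes were lower and 2 were higher by limma-trend, and 4 did not pass the test. Acss2, Scd2, Fasn and Srebf1 were the lower genes, with log2 changes of -0.69, -0.56, -0.28 and -0.21, and Acly and Elovl6 were the higher ones, with 0.16 and 0.36. Of all tested genes, 16.5% were called lower and 18.0% higher, against 4 and 2 of 10 here. The median log2 change of the 10 genes was -0.24, beside 0.00485 over all tested genes. Acss2 and Scd2 carried the large changes, as 92.5% and 86.8% of tested genes changed by less in either direction, whereas 36.5% did for Acly. With other scaling factors the split moved to 5 lower and 1 higher (upper quartile factors), 4 and 1 (DESeq2 size factors) or 2 and 2 (library size only). Cells of a type becoming fewer and less RNA per cell cannot be told apart in such bulk samples.

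The samples held between 12898291 and 13433824 counts, apart from hypoxia replicate 1 with 25132141. Car9, a target of hypoxia-inducible factors that checks the oxygen label, ranged from 29.1 to 42.0 CPM (counts scaled to library size, by TMM factors) at 2% O2 and from 5.61 to 8.89 CPM at 21% O2. The MSC sort markers Ly6a (Sca-1) and Pdgfra (CD140a) were present at 349 to 501 and 150 to 227 CPM in all samples, and of 10 MSC markers 1 was lower and 3 higher at 21% O2. Ptprc, which encodes the CD45 used to exclude blood cells, was nevertheless present at 8.27 to 19.0 CPM, and the 14 macrophage and leukocyte markers together reached 796 to 1794 CPM in hypoxia and 808 to 1604 CPM in normoxia. Of these 14 markers, 3 were lower and 1 higher at 21% O2, and 10 were lower and 1 higher with the replicate number as a block. For every marker list here, the shares over all tested genes were 16.5% lower and 18.0% higher. With the block they were 22.7% and 23.3%. The 12 adipocyte markers summed to 99.3 to 147 CPM in hypoxia and 78.1 to 102 CPM in normoxia, with 1 of 7 tested markers called lower, Lep at 0 counts in every sample and Adipoq at 2 to 46 counts. Of 8 tested osteoblast markers 4 were lower and 1 higher, and the list of 9 summed to 50330 to 58980 CPM in hypoxia and 31030 to 33750 CPM in normoxia, without overlap. Endothelial markers reached at most 3.43 CPM in sum, and 5 of 6 erythroid markers had 0 counts. The part of these cell types in the changes of the fatty acid genes was not tested.

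The table of RefSeq start sites used here (GRCm38.p6) matched 8 of the 10 genes with 10 start sites, 3 of them of Srebf1. Scd1 and Scd2 were not matched in it. The stretches before the start are shown for the acetyl-CoA source that was lower (Acss2), the source that was higher (Acly), the synthase (Fasn) and the regulator (Srebf1), because these genes moved in different directions. Capitals mark matches on either strand to the hypoxia response element core (ACGTG or GCGTG), the CCAAT box (CCAAT) and the GC box (GGGCGG), and neighbouring or overlapping matches run together. The Acss2 stretch, chr2:155517793-155517947 on the plus strand, ends where the GENCODE gene begins. The Acly stretch is chr11:100528001-100528250, that of Fasn is chr11:120824548-120824797 and that of Srebf1, before the most downstream of its 3 start sites and so in an intron of the GENCODE gene, is chr11:60210472-60210721, all on the minus strand and printed 5′ to 3′ along the gene.
Acss2: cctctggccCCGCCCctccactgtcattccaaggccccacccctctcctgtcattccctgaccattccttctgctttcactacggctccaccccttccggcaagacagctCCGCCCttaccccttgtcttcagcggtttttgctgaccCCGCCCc
Acly: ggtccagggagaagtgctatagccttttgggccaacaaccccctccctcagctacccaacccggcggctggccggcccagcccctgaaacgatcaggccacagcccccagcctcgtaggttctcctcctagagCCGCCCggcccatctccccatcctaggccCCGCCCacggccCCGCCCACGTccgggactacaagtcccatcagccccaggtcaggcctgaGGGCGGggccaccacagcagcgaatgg
Fasn: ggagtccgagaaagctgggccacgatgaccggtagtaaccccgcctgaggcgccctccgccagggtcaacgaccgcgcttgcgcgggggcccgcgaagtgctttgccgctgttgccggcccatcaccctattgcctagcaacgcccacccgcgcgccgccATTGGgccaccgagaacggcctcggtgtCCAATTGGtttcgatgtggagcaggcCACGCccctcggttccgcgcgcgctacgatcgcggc
Srebf1: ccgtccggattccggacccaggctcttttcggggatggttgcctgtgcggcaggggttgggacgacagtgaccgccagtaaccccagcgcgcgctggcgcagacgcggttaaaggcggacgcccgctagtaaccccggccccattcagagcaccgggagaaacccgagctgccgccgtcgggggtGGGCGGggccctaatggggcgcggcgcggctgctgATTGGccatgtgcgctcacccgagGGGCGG

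In the 250 bases before the RefSeq start, a hypoxia response element core stood at 4 of the 10 start sites (those of Acacb, Acly, Acss2 and Fasn) and at 38.6% of all 32851 start sites. The CCAAT box, read by the factor NF-Y, stood at 5 of 10 (Acacb, Acss2, Fasn and Srebf1, the last at more than 1 site) and at 33.8% of all sites. A GC box, read by Sp1, stood at 5 of 10 (Acly, Acss1, Acss2 and Srebf1, the last at more than 1 site) and at 32.7% of all sites. Of the 10 windows, 5 lie wholly inside the GENCODE gene, those of Acaca, Acacb and Acss1 and 2 of Srebf1, so the matches of Acacb and Acss1 are not upstream of those genes. The hypoxia core and the CCAAT box of Acss2 also lie inside the GENCODE gene, past the stretch printed here. Neither the sterol response element core TCACNCCAC, present in 1.05% of all sites, nor the E-box CACGTG, present in 6.02%, was matched in any of the 8 genes. Elements spelled otherwise were not searched for, so this does not show that the genes lack sterol response elements. Both the lower genes Acss2 and Fasn and the higher gene Acly thus held a hypoxia core match, which is a match of letters only.

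Of the acetyl-CoA sources, Acss2 was lower and Acly slightly higher, while Acss1 gave too few counts to tell. Acss2 (ENSMUSG00000027605, GRCm38 chromosome 2, 155517948 to 155585724), the cytosolic and nuclear acetyl-CoA synthetase, stood at 9.94, 11.1, 11.6 and 10.6 CPM in hypoxia replicates 1 to 4. In normoxia replicates 1 to 4 it stood at 5.79, 6.62, 6.63 and 7.61 CPM. Every normoxia sample was below every hypoxia sample, and the mean level of the 4 normoxia samples was 6.66 ± 0.74 against 10.8 ± 0.72 CPM (SD, n = 4 each). Its log2 change of -0.69 (SE 0.12) was the most negative among the genes that passed (limma-trend adjusted p = 0.000925). After a correction for GC content and transcript length, in a fit with the replicate block, the log2 change was -0.77 (limma-trend adjusted p = 2.28e-06). Of the 50-base stretches of its longest transcript, 8.32% also occurred in transcripts of other genes, mainly the opposite-strand Acss2os, with 0 counts, and Ggt7. Its exons also overlapped Gss on the opposite strand by 395 bases, and Gss changed by 0.45 (limma-trend adjusted p = 0.00971), the direction opposite to that of Acss2.

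Acly (ENSMUSG00000020917, chromosome 11, 100476353 to 100528000), the enzyme that splits exported citrate, stood at 134, 133, 132 and 121 CPM in hypoxia and at 142, 142, 155 and 143 CPM in normoxia, in replicate order. The groups did not overlap, although the highest hypoxia and the lowest normoxia samples were close. Acly was higher by 0.16 (SE 0.057), a ratio of 1.12 between the group levels (limma-trend adjusted p = 0.0411), and higher in 4 of 4 same-numbered pairs by 0.086 to 0.24. The call was lost when hypoxia replicate 3 or 4 or any single normoxia replicate was left out alone, with limma-trend adjusted p-values of 0.0713 to 0.15, and with DESeq2 (adjusted p = 0.0575), but it held without both samples numbered 1 (limma-trend adjusted p = 0.0441). With limma-trend the call was also lost under upper quartile factors, DESeq2 size factors or no filter (adjusted p = 0.0711, 0.0521 and 0.07). It held with the correction for GC content and length and the block together, at 0.19 (limma-trend adjusted p = 0.000932). No 50-base stretch of Acly was shared with another gene.

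Acss1 (ENSMUSG00000027452, chromosome 2, 150618105 to 150668500), the mitochondrial acetyl-CoA synthetase, gave 6, 6, 7 and 9 counts in hypoxia and 1, 2, 8 and 8 counts in normoxia. These counts lie near the smallest level that can be shown, 3 counts, which is 0.119 to 0.233 CPM in these samples. The groups overlapped, and the log2 change of -0.44 (SE 0.40) had a 95% confidence interval from -1.31 to 0.43 (limma-trend adjusted p = 0.427), so neither a fall nor a rise was detectable at this depth.

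To set the acetyl-CoA sources against each other without any scaling between samples, the ratio of Acss2 to Acly was taken within each sample. For every 100 counts of Acly there were 7.41, 8.37, 8.84 and 8.76 counts of Acss2 in hypoxia and 4.07, 4.67, 4.27 and 5.31 in normoxia. The log2 ratio was lower by 0.85 in normoxia, a value of -0.853, and no normoxia sample reached the hypoxia range. By exact permutation over 70 assignments the two-sided p was 0.0286, the smallest value the design allows. Adjusted over 5 ratios it was 0.143 and did not pass. As Acss2 was lower and Acly higher without overlap, the ratio had to separate the groups. Its permutation p was thereby fixed and adds no support beyond the values of those genes. All 4 pairs moved the same way, by -1.03 to -0.71 (exact sign-flip permutation test, p = 0.13, the smallest that 4 pairs allow). The ratio of Acss2 to Acss1 differed by -0.24 and overlapped widely (exact permutation p = 0.486, and 0.607 adjusted over 5 ratios), and its lower term held 1 to 9 counts.

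**Figure D1:**
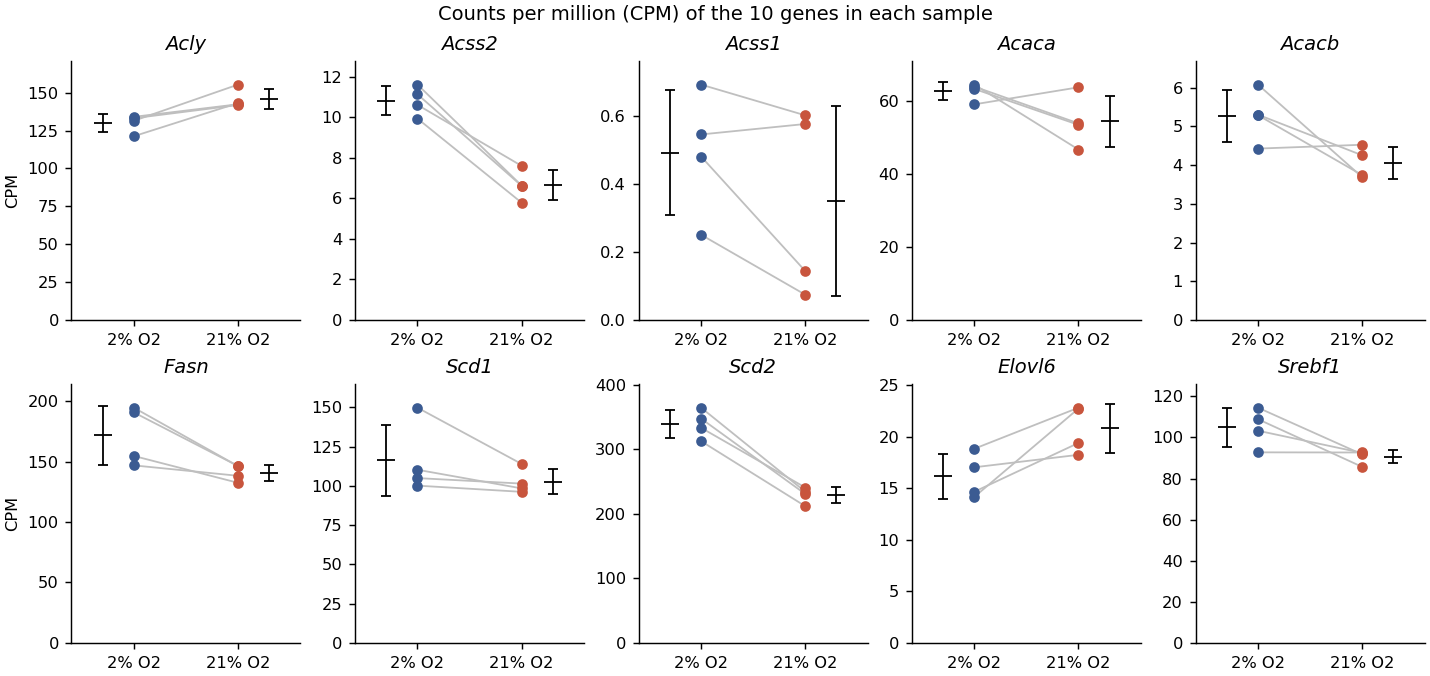
Library-scaled counts (CPM, y axis of each panel, starting at 0) of the 10 genes in the 4 samples at 2% O2 (blue) and the 4 at 21% O2 (red). Grey lines join same-numbered samples, and black bars show the mean ± SD. Acss2 and Scd2 drop without overlap, from 10.8 to 6.66 and from 340 to 230 CPM on average, while Acly and Elovl6 are higher at 21% O2 and Acss1 lies under 1 CPM in every sample.

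Malonyl-CoA and palmitate synthesis came next along the pathway, and of its 3 genes only Fasn passed the test. Fasn (ENSMUSG00000025153, chromosome 11, 120805846 to 120824547), the fatty acid synthase, stood at 191, 155, 195 and 147 CPM in hypoxia and at 146, 132, 146 and 138 CPM in normoxia. Hypoxia replicates 1 and 3 were well above hypoxia replicates 2 and 4, and hypoxia replicate 4 lay barely above normoxia replicate 1, at 146.8 against 146.3 CPM. The log2 change was -0.28 (SE 0.090; limma-trend adjusted p = 0.0316). The change was smaller, at -0.082, after the correction for GC content and length in the blocked fit (limma-trend adjusted p = 0.157). Leaving out hypoxia replicate 1 or 3 or normoxia replicate 2 or 4 lost the call, with limma-trend adjusted p-values of 0.0597 to 0.102, the last without hypoxia replicate 3, where the change was -0.21. Without both samples numbered 1 the adjusted p was 0.0525 with limma-trend and 0.0016 with the replicate block added.

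Acaca (ENSMUSG00000020532, chromosome 11, 84129672 to 84401651) encodes the cytosolic acetyl-CoA carboxylase whose malonyl-CoA feeds synthesis. Its 4 hypoxia samples were close together at 64.4, 63.8, 63.2 and 59.0 CPM, whereas the normoxia samples ranged from 46.6 CPM in replicate 1 through 53.8 and 53.4 to 63.6 CPM in replicate 4. The groups overlapped through normoxia replicate 4, the log2 change was -0.21 (SE 0.085), and 3 of 4 pairs were lower (limma-trend adjusted p = 0.0742). With the replicate block it passed (limma-trend adjusted p = 0.0191), but not when the samples numbered 1 were also left out (0.154). More than any other gene here, Acaca shared sequence, since 52.6% of its 50-base stretches also occur in the processed pseudogene Gm5182, which itself had 13 to 41 counts and a log2 change of -0.26 (limma-trend adjusted p = 0.503). The value of Acaca is therefore uncertain to the extent that reads matching both places were left out or split.

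Acacb (ENSMUSG00000042010, chromosome 5, 114146535 to 114250761) encodes the carboxylase at the outer mitochondrial membrane, whose malonyl-CoA restrains fatty acid import for oxidation. It stood at 4.43, 5.29, 5.31 and 6.08 CPM in hypoxia and at 4.53, 3.74, 4.26 and 3.69 CPM in normoxia. Hypoxia replicate 1 sat within the normoxia range and the other hypoxia samples above it. Its log2 change of -0.36 (SE 0.14) did not pass (limma-trend adjusted p = 0.0726 and, blocked by replicate, 0.0563). Without hypoxia replicate 1 it did, at -0.44 (limma-trend adjusted p = 0.04), and after the correction for GC content and length with the block it was -0.20 (0.312).

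Neither ratio within this step differed beyond the spread. For every 100 counts of Acaca there were 6.88 to 10.3 counts of Acacb in hypoxia and 5.80 to 9.71 in normoxia, a log2 difference of -0.15 (exact permutation p = 0.40, and 0.607 adjusted over 5 ratios). The ratio of Fasn to Acaca differed by -0.065 (exact permutation p = 0.686, and 0.686 adjusted over 5 ratios), with 2 pairs lower and 2 higher.

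The desaturases and the elongase that act on new palmitate went different ways. Scd2 (ENSMUSG00000025203, chromosome 19, 44293674 to 44306864), a stearoyl-CoA desaturase, stood at 348, 313, 365 and 333 CPM in hypoxia and at 231, 212, 234 and 241 CPM in normoxia. There was a clear gap between the groups, the means being 340 ± 22.0 and 230 ± 12.4 CPM (SD, n = 4 each). Scd2 fell by 0.56 on the log2 scale (SE 0.063; limma-trend adjusted p = 0.000112), to 0.676 of its hypoxia level. In the 4 pairs the change was -0.64 to -0.47, and over all 23 alternative fits it stayed between -0.60 and -0.48 with every adjusted p at or under 0.000711.

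Scd1 (ENSMUSG00000037071, chromosome 19, 44394455 to 44407879), the neighbouring desaturase gene best known from liver and fat, stood at 149.7, 100.1, 105 and 110.2 CPM in hypoxia and at 114, 96.2, 101 and 98.4 CPM in normoxia. Both samples numbered 1 were the highest of their group, and the groups overlapped. The log2 change was -0.17 (SE 0.11; limma-trend adjusted p = 0.27). With the replicate block the same change passed (adjusted p = 0.0239), but without the samples numbered 1 the change was -0.098 and did not pass in the blocked fit (limma-trend adjusted p = 0.22). Scd1 was highest in hypoxia replicate 1. In that sample Ptprc stood at 8.27 CPM, against 12.7 to 16.85 CPM in the remaining hypoxia samples. Adipoq stood there at 0.292 CPM (7 counts), against 0.468 to 3.54 CPM. The part of adipocytes or leukocytes in the Scd1 value was not tested.

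The balance between the desaturases shifted towards Scd1 in each pair. For every 100 counts of Scd2 there were 43.0, 32.0, 28.8 and 33.1 counts of Scd1 in hypoxia and 49.3, 45.4, 43.3 and 40.8 in normoxia, so that only hypoxia replicate 1 reached into the normoxia range. The log2 ratio was higher by 0.40 and rose in 4 of 4 pairs by 0.20 to 0.59, which did not pass (exact permutation, two-sided p = 0.0571, or 0.143 after adjustment over 5 ratios). Scd1 and Scd2 shared 145 of their 50-base stretches, 3.03% of those of Scd1, and the related Scd3 and Scd4 had at most 3 counts in any sample.

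Elovl6 (ENSMUSG00000041220, chromosome 3, 129532355 to 129638495), the elongase that carries palmitate to stearate, stood at 17.0, 18.8, 14.7 and 14.2 CPM in hypoxia and at 18.3, 22.8, 19.4 and 22.7 CPM in normoxia. Normoxia replicate 1 lay just under hypoxia replicate 2, so the groups overlapped, although every normoxia sample exceeded the hypoxia sample of the same number. The log2 change was 0.36 (SE 0.11; limma-trend adjusted p = 0.0271), and the 4 pairs ran from 0.098 to 0.68. After the correction for GC content and length with the block the change was 0.19 and did not pass (limma-trend adjusted p = 0.0755). Leaving out hypoxia replicate 3 or 4 or normoxia replicate 2 or 4 also lost the call, with limma-trend adjusted p-values of 0.0802 to 0.0883.

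**Figure D2:**
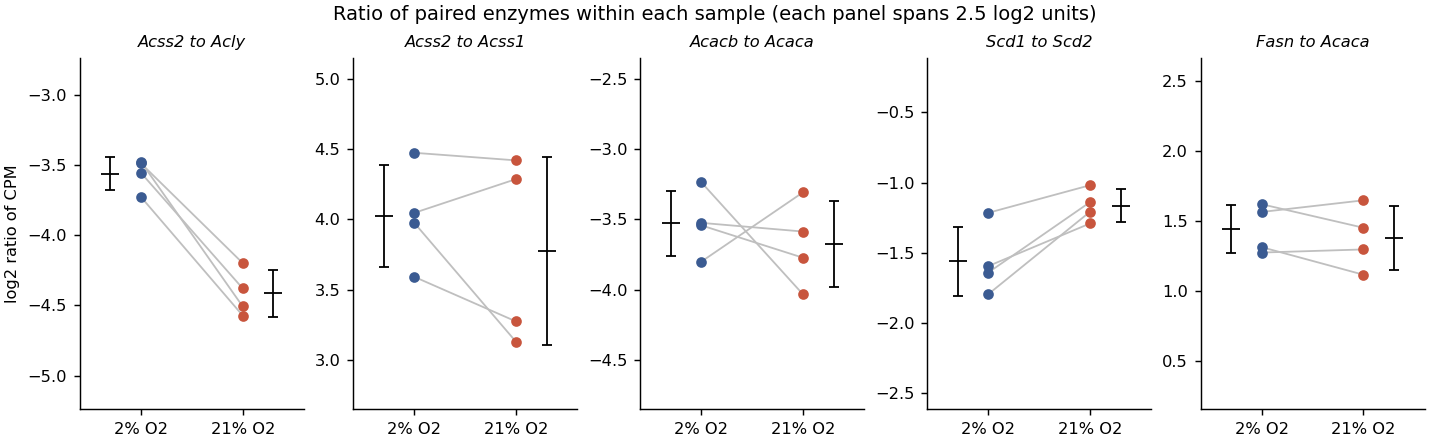
Log2 ratio of the CPM of paired enzymes within each sample (y axis, each panel spanning an equal range) at 2% O2 (blue) and 21% O2 (red), with grey lines joining same-numbered samples and bars for the mean ± SD. The ratio of Acss2 to Acly separates the groups, with a difference of -0.853, and that of Scd1 to Scd2 is higher at 21% O2 in every pair, with the groups overlapping through 1 hypoxia sample. The other 3 ratios overlap too.

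Srebf1 (ENSMUSG00000020538, chromosome 11, 60199089 to 60222581), the regulator of the pathway, stood at 109, 103, 114.5 and 92.8 CPM in hypoxia and at 85.7, 92.5, 91.8 and 92.7 CPM in normoxia. Pair 4 was nearly equal, with 92.77 CPM in hypoxia and 92.70 CPM in normoxia, and pairs 1 to 3 were lower by -0.35 to -0.16. The log2 change was -0.21 (SE 0.069; limma-trend adjusted p = 0.0361). After the correction for GC content and length with the block it was -0.048 (limma-trend adjusted p = 0.485). Leaving out hypoxia replicate 1, 2 or 3 or normoxia replicate 1 or 3 lost the call, with limma-trend adjusted p-values of 0.053 to 0.112. Transcripts of the separate start sites of Srebf1 are summed in these counts, and 1.41% of its 50-base stretches were shared, all with the opposite-strand gene Rai1.

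Among the 10 genes, 5 had groups that did not overlap, 4 lower (Acss2, Scd2, Fasn and Srebf1) and 1 higher (Acly), beside 15.5% and 17.1% of all tested genes. With the replicate block, 6 were called lower and 2 higher, as Acaca and Scd1 were added, against 22.7% and 23.3% of all genes. Without the samples numbered 1, which include the deeply sequenced library, 3 were lower and 2 higher, and 5 and 2 with the block. The 3 lower genes were then Acss2, Scd2 and Acacb, and the block added Fasn and Srebf1. Leaving out hypoxia replicate 3 left only Acss2 and Scd2 past the limma-trend threshold, and neither Acly nor Elovl6 passed without hypoxia replicate 4, normoxia replicate 2 or normoxia replicate 4.

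**Figure D3:**
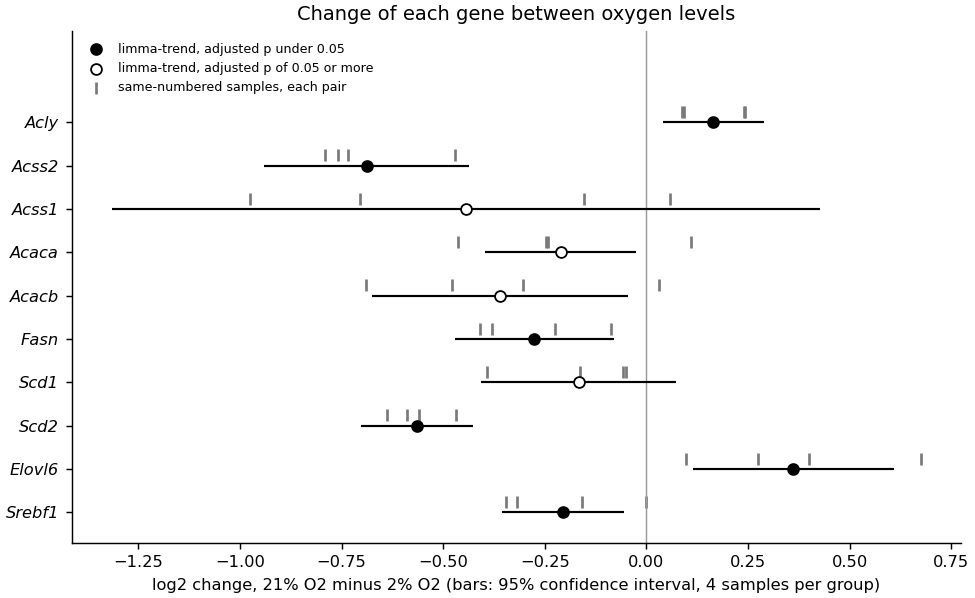
Log2 change of each gene, 21% O2 minus 2% O2 (x axis), with 95% confidence intervals from limma-trend as horizontal bars, filled circles for adjusted p under 0.05 and ticks for the 4 same-numbered pairs. Acss2 and Scd2 lie at -0.69 and -0.56, clear of 0 in every pair, whereas 1 pair each of Acss1, Acaca and Acacb lies above 0.

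The called genes that no longer passed after correction for GC content and length (Fasn, Srebf1 and Elovl6) lay at the ends of the GC range of these genes. Acacb, Fasn and Srebf1 had the highest GC content in their longest transcript, 56.7%, 57.9% and 58.4%, against a median of 49.7% over all tested genes. Their log2 changes moved from -0.36, -0.28 and -0.21 to -0.20, -0.082 and -0.048 with the correction. Elovl6 had the lowest, 44.0%, and moved from 0.36 to 0.19. Acss2, Scd1, Acaca and Scd2, at 47.1% to 49.5%, kept or enlarged their negative values, the largest move being that of Scd1 from -0.17 to -0.26. In the corrected fit that also held the block, Acss2, Scd2, Acaca and Scd1 were lower and Acly was higher, 4 and 1 of 10 genes, beside 21.5% and 21.7% of all genes. The median over the 10 genes was then -0.21, against 0.00272 over all genes. A real change that happens to track GC content or length is taken out too, and which of the values is nearer to the RNA levels in the cells was not tested.

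**Figure D4:**
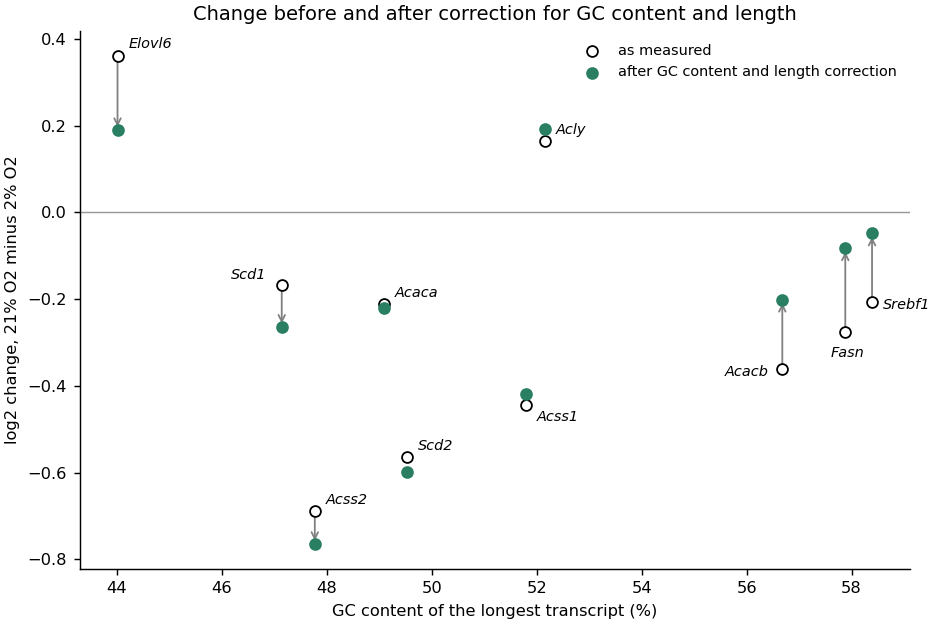
Log2 change (y axis) against GC content of the longest transcript in percent (x axis) for the 10 genes, as measured (open circles) and after correction for GC content and length (green). Arrows of Acacb, Fasn and Srebf1, at 56.7% to 58.4%, point towards 0, as does that of Elovl6 at 44.0%, while Acss2 and Scd1 move further below 0.

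Levels can be compared between genes only per length, so CPM were divided by the kilobases of annotated exon of each gene. Scd2 was the most abundant in both groups, with 62.2 ± 4.03 CPM per kb at 2% O2 and 42.0 ± 2.27 at 21% O2 (SD, n = 4 each). Acly (24.6 ± 1.12) and Scd1 (23.8 ± 4.63) came next in hypoxia and overlapped each other, followed by Srebf1 (18.6 ± 1.65) and Fasn (15.7 ± 2.23), which also overlapped. A wide step led down to Acaca (3.67 ± 0.14) and Elovl6 (2.52 ± 0.34), and then to Acss2 (1.07 ± 0.071), Acacb (0.548 ± 0.070) and Acss1 (0.119 ± 0.045). In normoxia the order was the same except that Elovl6 (3.23 ± 0.36) stood beside Acaca (3.18 ± 0.41) within their spread. Per length, Acss2 thus had a small fraction of the level of Acly in both groups. With the longest transcript as the length, the hypoxia means were 3.00 CPM per kb for Acss2 and 2.72 for Elovl6, and 24.4 for Srebf1 and 24.1 for Scd1, so the order of these neighbours rests on the length used.

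Other genes that feed, regulate or use the pathway were described from 6 lists, of which 91 of 99 annotated genes were tested. Of these, 19 were lower and 15 higher at 21% O2, beside 16.5% and 18.0% of all tested genes, with a median log2 change of -0.0076. After correction, in the fit with pairs, 20 were lower and 13 higher, beside 21.5% and 21.7%. Among the partners of elongation and desaturation, 6 of 13 tested genes were lower, 1 was higher and 6 did not pass, beside 16.5% and 18.0% of all genes, with a median of -0.12. With the correction and the block 8 were lower and 1 higher. Tecr, the reductase that completes each elongation cycle, fell from 131 to 152 CPM in hypoxia to 94.4 to 95.7 CPM in normoxia, a log2 change of -0.58 (limma-trend adjusted p = 6.24e-05). The desaturases of polyunsaturated chains, Fads1 and Fads2, fell by 0.50 and 0.53 on the log2 scale (limma-trend adjusted p = 0.000265 and 0.0101). All 3 kept their call with the correction and the block, at -0.36, -0.46 and -0.43.

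In the supply of citrate and NADPH, 2 of 12 genes were lower and 2 higher, beside 16.5% and 18.0% of all tested genes. The median was -0.060. Slc25a1, the carrier that exports the citrate used by Acly, stood at 88.4 to 104 CPM in hypoxia and 71.8 to 78.0 CPM in normoxia, a change of -0.35 opposite in sign to that of Acly (limma-trend adjusted p = 0.00147). With the correction and the block it was -0.12 and did not pass (0.0633). Pgls, of the pentose phosphate pathway, changed by -0.48, and Me1, the cytosolic malic enzyme that makes NADPH, rose by 0.31 (limma-trend adjusted p = 0.00113 and 0.00254).

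Among the regulators, 5 of 19 tested genes were lower and 5 higher, beside 16.5% and 18.0% of all tested genes. The median was 0.0089. With the correction and the block 3 were lower and 2 higher, beside 21.5% and 21.7%. Mlxip, which encodes a glucose-sensing factor, changed by -0.49 (limma-trend adjusted p = 0.000739). Fbxw7, which marks SREBP for degradation, and Prkaa2, a catalytic subunit of the kinase AMPK, rose by 0.56 and 0.52 (limma-trend adjusted p = 0.0114 and 0.00966). The change of Prkaa2 did not pass with the correction and the block (0.111). Around Srebf1 itself, in genes chosen after their values were seen, the paralog Srebf2 and the SREBP escort Scap had changes of -0.40 and -0.25, and the SREBP retention factor Insig2 rose by 0.30 (limma-trend adjusted p = 0.00063, 0.00399 and 0.0147). Its relative Insig1, an SREBP target, had -0.10 and did not pass (limma-trend adjusted p = 0.353). Scap did not pass with the correction and the block either (0.191). These are picked genes of a list with 5 lower and 5 higher, and others of it, such as Mbtps1 and Mbtps2, are not given here.

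Of the acyl-CoA synthetases and triglyceride enzymes, 3 of 19 were lower and 4 higher, with a median of 0.051. For each list in this paragraph, the shares over all tested genes were 16.5% lower and 18.0% higher. Acss3, a mitochondrial short-chain synthetase related to Acss1 and Acss2, fell from 5.21 ± 1.26 to 2.55 ± 0.43 CPM (SD, n = 4 each), a log2 change of -0.96 (limma-trend adjusted p = 0.00294). Acsl4, which activates arachidonate, and Lpin3, a phosphatidate phosphatase, rose by 0.86 and 0.80 (limma-trend adjusted p = 0.000235 and 0.000602). In mitochondrial fatty acid synthesis, 1 of 10 genes was lower, Acsf3, the malonyl-CoA synthetase, with -0.27 and a limma-trend adjusted p of 0.0494 that was lost with the correction and the block (0.437). In malonyl-CoA removal and oxidation, 2 of 18 were lower and 3 higher, with a median of 0.0061. Cpt1a, the malonyl-CoA-inhibited gate of mitochondrial import, rose by 0.27, Etfdh, which passes electrons from oxidation to ubiquinone, rose by 0.30, and Hadh, an oxidation dehydrogenase, fell by 0.43 (limma-trend adjusted p = 0.00332, 0.00696 and 0.00307). Etfdh did not pass with the correction and the block (0.147).

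**Figure D5:**
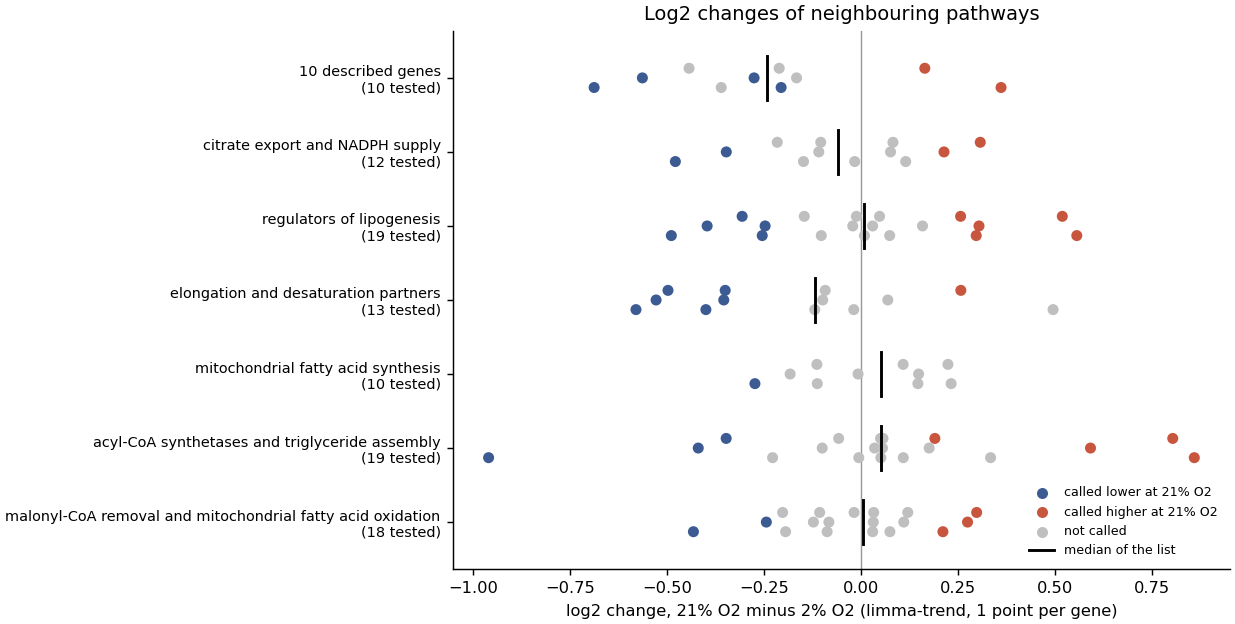
Log2 change (x axis, 21% O2 minus 2% O2) of each tested gene in the 10 described genes and 6 neighbouring lists (rows, with the number tested), blue where called lower, red where called higher and grey otherwise, with black bars for medians. The median of the described genes is -0.24 and that of elongation and desaturation partners -0.12, while the other 5 lists have medians between -0.060 and 0.051.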

How the data were processed

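RNA from 4 hypoxia and 4 normoxia samples was analysed. Per the study's methods, single-end reads were processed with zUMIs, STAR and featureCounts on mm10 with Ensembl annotation. The authors deposited raw counts per gene, not normalized. How strand and reads matching several places were handled is not given in the sources used here. Symbols, positions and transcripts were taken from GENCODE M21 (GRCm38). Genes were kept by filterByExpr of edgeR 4.0.16 (minimum count 5), which left 99.9% of the counts. TMM-scaled log2 CPM with a prior count of 3 was compared by limma-trend (limma 3.58.1, R 4.3.3), with Benjamini-Hochberg adjustment over all tested genes and a threshold of 0.05. CPM per sample also use TMM factors. The genes, lists and named genes were chosen with earlier results of these data known. Up to 3 called genes with the largest change were named per list. Slc25a1 and, after their values were seen, Srebf2, Scap, Insig1 and Insig2 were named besides.

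Same-numbered samples deviated together from their group means across genes, with correlations of 0.47, 0.28, 0.25 and 0.17 for pairs 1 to 4. The numbers were therefore taken to pair the samples, and the study describes culturing the sorted cells at both oxygen levels. The labels give only sample numbers, and correlations between samples of unlike number are not given here. The pairing is thus an assumption on which the results with the block rest. The replicate number as a block was an alternative, as were natural splines (5 degrees of freedom each) of GC content and log length, edgeR, DESeq2 1.42.0 and limma-voom tests, other scalings and filters, and leaving out samples. Simulated counts with 200 changed genes were used to test limma-trend with and without the block, and limma-voom, edgeR and DESeq2 without it. This simulation held no pair effect. It did not cover the correction for GC content and length or the ratio tests. Sampling depth limits levels under 3 counts, and this covers counting error only. The study calls the 4 replicates biologically independent, but the labels do not say whether they came from separate animals, so p-values measure the spread between these samples.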

Additional observations from a re-analysis of the deposited data

Results flagged for a closer look

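The highest and lowest sample of each group were set against the remaining 3 by Dixon's ratio, the gap to the next value as a share of the range, in 32 sets of 4 values. Its critical value was passed in 3 sets, where chance gives about 1.6. Acly in normoxia replicate 3 was at 7.283 log2 CPM against 7.15 to 7.17 in the other normoxia samples, with a gap of 0.894 of the range. Without this sample the log2 change of Acly was 0.13 and did not pass (limma-trend adjusted p = 0.15). Srebf1 in normoxia replicate 1 was at 6.426 log2 CPM against 6.52 to 6.54, with a gap of 0.876 of the range. Without it the log2 change of Srebf1 was -0.19 and did not pass (limma-trend adjusted p = 0.0709). The total of hypoxia replicate 1 was 25132141 counts, and the remaining hypoxia totals were 12929564 to 13219647, which makes the gap 0.976 of the range. Without this sample, 3 of the 10 genes were lower (Acss2, Scd2 and Acacb) and 2 higher. The log2 change of Scd1 was then -0.038 in place of -0.17.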

How the results depend on the processing

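Acss2 and Scd2 kept direction and call in all 23 alternative fits. No gene of the 10 changed sign in any of them, and of their 228 alternative values 34 lost the call and 12 gained it. Genes called lower numbered 4, and 2 with library size only, which took out Fasn and Srebf1. They numbered 3 with no filter and 5 with upper quartile factors. With the GC and length correction alone they numbered 3. There Fasn and Srebf1 were lost and Acaca was gained (limma-trend adjusted p = 0.544, 0.584 and 0.0345). Leaving out samples gave 2 to 5 lower and 0 to 2 higher, in place of 4 and 2. Genes called higher numbered 1 with DESeq2, DESeq2 size factors, upper quartile factors, no filter, the GC and length correction, and this correction with the replicate block. With the replicate block alone 6 were lower and 2 higher, and beyond Acaca and Scd1 it changed no call of the 10. Pathway genes called higher were 9 with the GC and length correction and 15 without. Paired by replicate number (block), the ratio of Acss2 to Acly was -0.853 with an exact sign-flip permutation p of 0.13, which 4 pairs cannot go below. That of Scd1 to Scd2 ran from 0.32 to 0.51 when samples were left out, with an exact permutation p of 0.0286 without hypoxia replicate 1. No ratio passed after adjustment over the 5 ratios, and some changed sign. Acss2 to Acss1 went to 0.058 with a prior count of 0.5. With the GC and length correction, Acacb to Acaca went to 0.020 and Fasn to Acaca to 0.138. Fasn to Acaca ran from -0.154 to 0.022 when samples were left out, with 0.022 without normoxia replicate 4. The causes were not tested. Depth limits Acss1 most, whose lowest value is 1 count.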
